A study of Rattus norvegicus with 16 samples.

Results

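Hcn2, Hcn3 and Hcn4 encode pore subunits of HCN pacemaker channels and were taken from the tables by their gene symbols. They are 3 of the 21021 genes listed for every sample (Entrez gene identifiers 114244, 114245 and 59266). RNA was sequenced from dorsal root ganglia (DRG) of adult female Sprague-Dawley rats that had received rat mammary gland carcinoma cells in the left tibia, a procedure called tumor cell implantation (TCI). Ipsilateral ganglia were taken 1, 7 or 14 days after TCI (TCI D1, D7 and D14), or 14 days after a sham injection of PBS without tumor cells, with 4 samples in each group. The lumbar ganglia of 1 animal were pooled as a sample, so replicates were different rats. The study dropped TCI D1 replicate 2 and TCI D7 replicate 3 for poor correlation with the other samples. Values below come from the other 14 samples (4 sham, 3 TCI D1, 3 TCI D7 and 4 TCI D14) unless all 16 are named. Sham ganglia were collected on a single day, so on D1 and D7 the effect of TCI and that of time since surgery cannot be told apart.

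The channels open when the membrane becomes more negative and carry Ih, an inward current of sodium and potassium that brings the cell back toward threshold. Each channel is built of subunits around 1 pore, and cyclic AMP binds a domain at the end of the subunits and makes HCN2 and HCN4 open more readily, while HCN3 is little affected by it. Ih is found in many DRG neurons, and HCN2 in small nociceptive neurons is known from mouse work to link prostaglandin-driven cyclic AMP to repetitive firing in inflammatory and nerve injury pain. HCN4 is best known as the main pacemaker subunit of the sinoatrial node.

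Expression was given as FPKM, a fragment count divided by transcript length and by the size of the library, which allows levels of different genes to be compared. FPKM summed to between 436572 and 473959 per sample and 13150 to 13805 genes reached 1 FPKM. Read totals were not in the tables, but the steps of low values put the relative depth of the 16 samples between 0.933 and 1.17 of their median. All 19 pan-neuronal markers examined were measured, with a summed level of 17394.9 to 18229.2 FPKM in sham ganglia. TCI D7 replicate 3 had a summed pan-neuronal level of 10511.4 FPKM and a summed skeletal muscle level of 22534 FPKM, against 9.68 to 559 FPKM for muscle in the sham samples. Its median correlation with the other samples was 0.928, below the other 15 samples, which were at 0.950 or more. TCI D1 replicate 2, the other sample the study dropped, was at 0.984 and did not stand apart on this measure.

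Hcn2 was the most abundant of the 3 genes in every sample, Hcn3 was intermediate and Hcn4 was low. In sham ganglia Hcn2 stood at 57.5 ± 3.16 FPKM (SD, n = 4), Hcn3 at 9.46 ± 0.390 FPKM and Hcn4 at 2.56 ± 0.0562 FPKM. These sham levels were at the 89.4th, 50.0th and 19.8th percentile of the 14023 genes that passed the filter on low values (at least 1 FPKM in at least 3 samples). All 3 genes passed this filter. The ratio of Hcn2 to Hcn3 FPKM ran from 5.45 to 7.58 over the 14 samples, with a median of 5.95. The order of the 3 genes did not change in any of the 16 samples.

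Hcn2, which encodes a subunit with a strong cyclic AMP response, was at 53.94, 61.2, 56.18 and 58.83 FPKM in sham replicates 1 to 4. On TCI D1 it was at 53.04, 60.03 and 58.56 FPKM, and the dropped replicate was at 48.3 FPKM. On TCI D7 it was at 50.64, 52.24 and 55.57 FPKM, with the dropped replicate at 35.08 FPKM. It was at 53.25, 52.3, 61.74 and 51.23 FPKM on TCI D14. Every tumor day overlapped the sham range, and replicate 3 of TCI D14 was the highest of all samples.

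Hcn3, the subunit least responsive to cyclic AMP, read 9.06, 9.28, 9.52 and 9.97 FPKM in sham ganglia. On TCI D1 it read 9.13, 7.92 and 8.53 FPKM, with 8.46 FPKM in the dropped replicate. TCI D7 gave 8.5, 9.59 and 9.82 FPKM, with 5.31 FPKM in the dropped replicate, and TCI D14 gave 8.96, 8.32, 9.46 and 9.16 FPKM. Both the D1 and the D14 samples reached into the sham range at their upper end, and those of D7 lay on both sides of the sham mean.

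Hcn4, which encodes the slowest-opening subunit, was tightly grouped in sham ganglia at 2.5, 2.63, 2.53 and 2.57 FPKM. It was at 2.51, 2.3 and 2.18 FPKM on TCI D1, with the dropped replicate at 2.47 FPKM. The TCI D7 samples were at 3.29, 3.46 and 3.37 FPKM, all above every sham and every D1 sample, whereas the dropped D7 replicate was at 1.54 FPKM, below every other sample. On TCI D14 the values were 2.71, 2.53, 2.34 and 3.14 FPKM, spanning the sham range, with replicate 4 the closest to the D7 level.

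**Figure D1:**
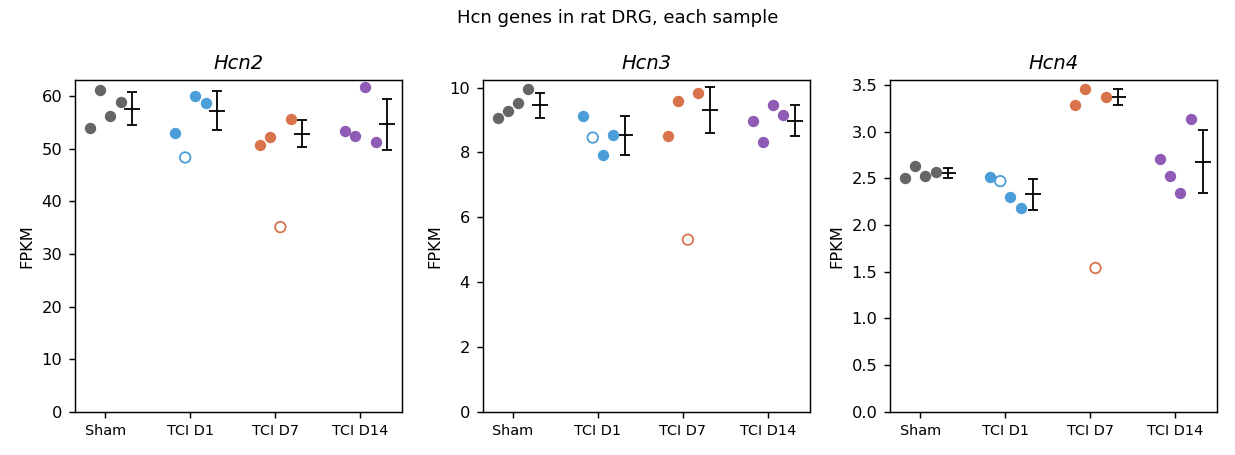
Level of Hcn2, Hcn3 and Hcn4 in FPKM (vertical axes, each from 0) for every sample, by group; filled points are the 14 samples used, open points the 2 samples the study dropped, and the bars give the mean and SD of the filled points. The 3 used TCI D7 samples of Hcn4 lie between 3.29 and 3.46 FPKM, above all sham samples, and the open D7 point lies lowest in each panel.

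On day 1 after TCI, when the study asked for the earliest changes in the ganglia, none of the 3 genes differed from sham beyond the spread between animals. Hcn2 differed by -0.01 ± 0.069 on the log2(FPKM + 1) scale (SE, adjusted p = 0.999, limma), with a 95% interval of -0.16 to 0.14. Hcn3 was at 8.53 ± 0.605 FPKM against 9.46 in sham, a difference of -0.14 with an interval that ended at 0.00 (unadjusted p = 0.0539, adjusted p = 0.939). Hcn4 was at 2.33 ± 0.167 FPKM, a difference of -0.10 (adjusted p = 0.974). No gene at all was called on D1 by limma at an adjusted p of at most 0.05 (0% of 14023 genes), and 734 genes (5.23%) had an unadjusted p under 0.05.

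On day 7 Hcn4 rose from 2.56 to 3.37 ± 0.0850 FPKM, which is 31.9% above sham, while no difference was called for Hcn2 or Hcn3. The log2 difference of Hcn4 was 0.30 ± 0.0744 (95% interval 0.14 to 0.46, adjusted p = 0.0142). Of all genes tested on D7, 17.9% were called, 14.5% as higher and 3.45% as lower, so a call of this kind was common on that day. The D7 and sham samples of Hcn4 did not overlap, as was so for 23.8% of all genes in the same direction. Hcn2 was at 52.8 ± 2.52 FPKM on D7, a difference of -0.12 (interval -0.27 to 0.03, adjusted p = 0.258), and Hcn3 was at 9.30 ± 0.705 FPKM, a difference of -0.02 (adjusted p = 0.847). None of the 3 passed the stricter thresholds the study used (a log2 difference of at least 1 and an adjusted p of at most 0.001), which 1.83% of genes passed.

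The Hcn4 call on D7 depended on which samples entered and on the scaling between samples. With all 16 samples the difference was 0.10 (adjusted p = 0.643), when 19.3% of genes were called, and without TCI D7 replicate 2 it was 0.28 (adjusted p = 0.0560). Sample medians over all tested genes were 0.109 log2 units higher on D7 than in sham. Relative to that shift, with each sample centred on its median, Hcn4 differed by 0.19 (adjusted p = 0.0592), Hcn2 by -0.23 (adjusted p = 0.0614) and Hcn3 by -0.13 (adjusted p = 0.201). After quantile normalization Hcn4 differed by 0.08 (adjusted p = 0.407). The same choice decided the balance of all calls: 80.7% of the genes called on D7 were higher as deposited, 39.7% after median-centring and 36.6% after quantile normalization.

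**Figure D2:**
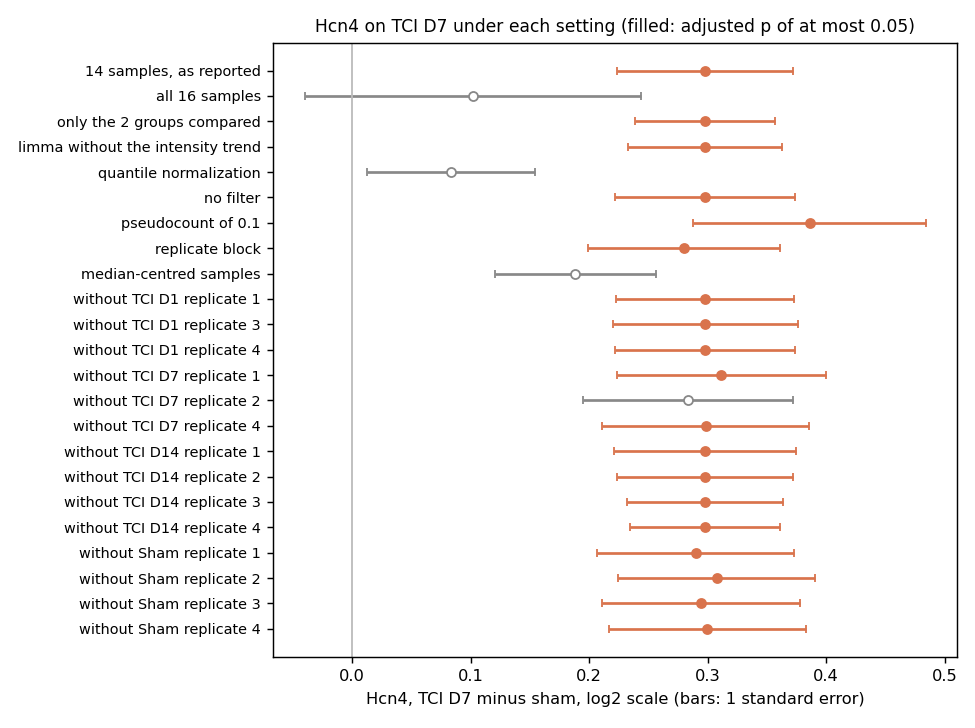
Difference in Hcn4 between TCI D7 and sham (horizontal axis, log2 scale, bars 1 standard error) for the 14 samples as reported and for each other setting; filled points have an adjusted p of at most 0.05. All points lie above 0, and the open ones are all 16 samples, quantile normalization, median-centred samples and the fit without TCI D7 replicate 2.

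On day 14 no difference was called for any of the 3 genes, on a day when 15.1% of all genes were called, 11.9% as higher and 3.21% as lower, and 0.642% passed the study's thresholds. Hcn4 was at 2.68 ± 0.342 FPKM, a difference of 0.04 from sham (adjusted p = 0.710), and its SD was wider than in the sham group (0.0562 FPKM). Hcn2 stood at 54.6 ± 4.81 FPKM, a difference of -0.08 with an interval of -0.21 to 0.06 (adjusted p = 0.461). Hcn3 stood at 8.98 ± 0.483 FPKM, a difference of -0.07 (adjusted p = 0.471). Of the genes called on D14, 78.8% were higher as deposited, 45.1% after median-centring and 41.6% after quantile normalization.

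**Figure D3:**
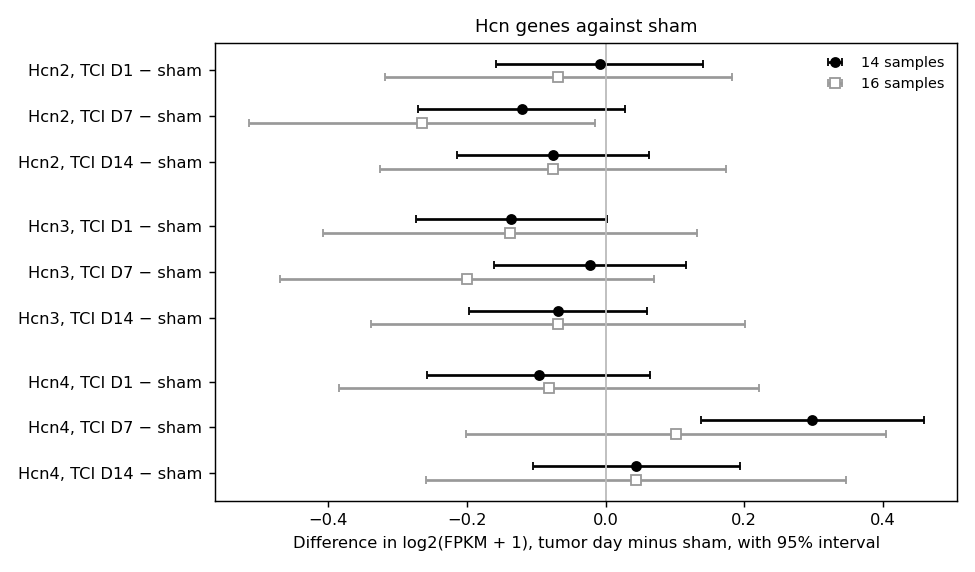
Difference of each tumor day from sham in log2(FPKM + 1) (horizontal axis) with 95% intervals from limma, for the 14 samples (black circles) and all 16 samples (grey squares). Only the 14-sample interval of Hcn4 on TCI D7, 0.14 to 0.46, is called; its 16-sample interval spans 0.

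Between tumor days, Hcn4 moved and the other genes were not called. It was higher on D7 than on D1 by 0.39 ± 0.0796 (adjusted p = 0.00695), again with no overlap between the groups. In that comparison 10.4% of all genes were called, 9.02% as higher, and 23.8% were higher without overlap. With all 16 samples the difference was 0.18 (adjusted p = 0.436), when 13% of genes were called. After quantile normalization it was 0.19 (adjusted p = 0.111), and after median-centring 0.29 (adjusted p = 0.0213). From D7 to D14 Hcn4 differed by -0.25 (interval -0.41 to -0.09, unadjusted p = 0.00474) and the groups did not overlap, as was so for 4.24% of genes in that direction, but the adjusted p was 0.257. Between D14 and D7, 0.0998% of genes were called, and between D14 and D1 6.96%. The mean levels of Hcn4 ran in the order D7, D14, sham and D1, and no neighbors in that order passed the test. Those of Hcn2 ran sham, D1, D14 and D7, and those of Hcn3 sham, D7, D14 and D1, with no pair of neighbors called (adjusted p from 0.616 to 0.999).

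The makeup of the family was then examined, since a share of the summed FPKM of the 3 genes does not depend on the scaling of a sample. In sham ganglia Hcn4 made up 3.60% to 3.82% of the sum. On TCI D7 it made up 5.27%, 5.30% and 4.90%, above every sham sample, and the dropped replicate was at 3.67%, within the sham range. The mean share was higher by 1.48 percentage points (two-sided exact permutation test, p = 0.0286, the smallest these group sizes allow). Over the 18 tests of this kind the adjusted p was 0.171. No p below 0.0286 can occur here, so a call after adjustment would need many of the 18 tests at that floor together. The adjusted p therefore cannot decide on a difference in a single share. With all 16 samples the difference was 1.11 points (exact permutation p = 0.0857).

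Hcn2 held 82.3% to 83.7% of the sum in sham ganglia and 81.1%, 80.0% and 80.8% on TCI D7, without overlap. For the FPKM of single genes, 10.1% were lower without overlap on D7. The mean Hcn2 share on D7 was lower by 2.06 points (exact permutation p = 0.0286, adjusted p = 0.171). Shares of a sample add up to the whole, so a higher Hcn4 share lowers the others, and the Hcn2 share is not a separate result. The FPKM of Hcn2 itself overlapped sham on D7 and was not called (limma, adjusted p = 0.258). The dropped D7 replicate had an Hcn2 share of 83.7%, within the sham range, and with all 16 samples the difference in share was -1.31 points (exact permutation p = 0.171). Hcn3 held 12.7% to 14.0% in sham ganglia and 13.6% to 14.7% on D7, a difference of 0.583 points (exact permutation p = 0.286). The Hcn2 to Hcn4 ratio was 21.6 to 23.3 in sham, 21.1 to 26.9 on D1, 15.1 to 16.5 on D7 and 16.3 to 26.4 on D14. On D14 the Hcn4 share spread from 3.18% to 4.94% and overlapped both the sham and the D7 samples.

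**Figure D4:**
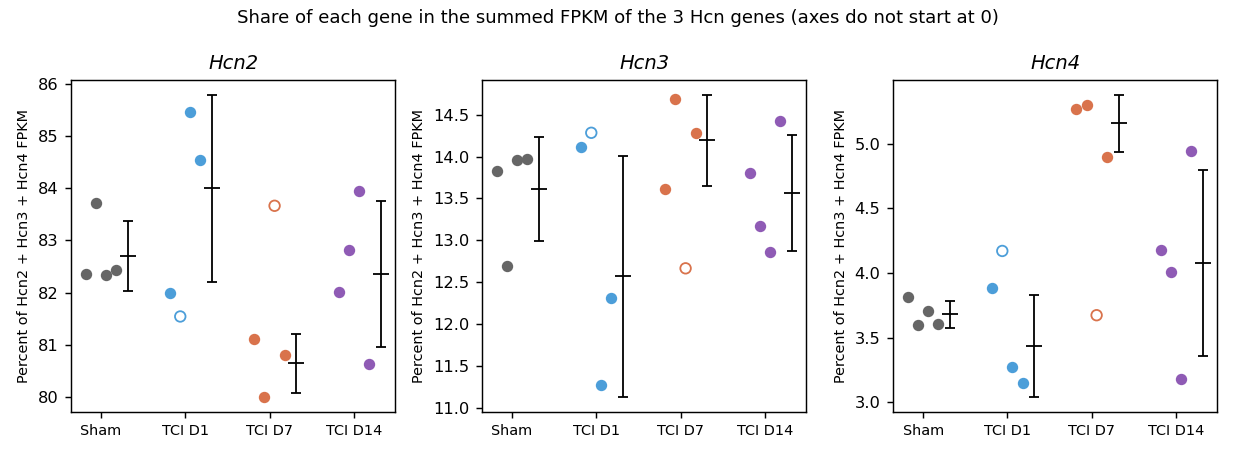
Percent of the summed Hcn2, Hcn3 and Hcn4 FPKM held by each gene (vertical axes, which do not start at 0), per sample and group, with mean and SD of the samples used and open points for the 2 dropped samples. On TCI D7 the 3 used samples lie at 4.90% or more for Hcn4 and at 81.1% or less for Hcn2, outside the sham ranges.

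A whole ganglion holds neurons, glia and other cells, and in such bulk samples fewer cells of a type and less RNA per cell cannot be told apart. The 3 genes were therefore also set against the mean of 19 pan-neuronal markers in the same sample. Of these, none was called higher and 4 were called lower on D7, with a median difference of -0.15 against 0.04 for all genes tested. They included Nefm and Nefl, neurofilament subunits (Nefm 3645 to 2961 FPKM, adjusted p = 0.00822; Nefl 4552 to 3717 FPKM, adjusted p = 0.00832), the synaptic protein gene Snap25 (-0.27) and Rbfox3, which encodes the nuclear marker NeuN (-0.24). After median-centring 10 of the 19 were lower on D7 and after quantile normalization 8, Nefl not among the latter (-0.19, adjusted p = 0.0629). Of all 14023 genes tested, 484 (3.45%) were lower on D7 as deposited, 2057 after median-centring and 2320 after quantile normalization. On D14, 4 were called lower, when 3.21% of all genes were, with a median of -0.10 against 0.03. Rbfox3 was not among these 4 (-0.10, adjusted p = 0.203). With all 16 samples none was called on D14, when 9.86% of genes were.

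Relative to the pan-neuronal mean, Hcn4 was higher by 0.45 log2 units on D7, against 0.30 without this reference. The reference itself was lower on D7, at 7.80 against 7.95 in sham, so any gene with an unchanged level rises on this scale. How many of all genes were higher than sham on this scale was not computed. The 3 D7 samples stood at -5.64, -5.65 and -5.72 relative to the pan-neuronal mean and the sham samples between -6.19 and -6.06. The exact permutation p was 0.0286, the smallest these group sizes allow. The adjusted p over the 18 tests was 0.171, which cannot decide here for the reason given for the shares. With all 16 samples the difference was 0.40, and the dropped D7 replicate stood at -5.86, above the sham samples on this scale (exact permutation p = 0.0286, adjusted p = 0.514). The scale adds 1 FPKM before the log, which understates a fall of a low gene more than that of abundant markers. With nothing added, the Hcn4 share of that replicate was 3.67%, within the sham range. That share has the summed Hcn genes as its reference, not the pan-neuronal markers. The part of the added 1 FPKM in the place of this replicate was not tested. Its Hcn4 level was 1.54 FPKM, below the sham samples (2.5 to 2.63 FPKM), so its place above sham here is not a higher Hcn4 level. Hcn2 differed by 0.03 on D7 (exact permutation p = 0.657) and Hcn3 by 0.13 (exact permutation p = 0.0571). On D14 Hcn4 differed by 0.16 (exact permutation p = 0.143).

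Markers of sensory neuron classes were examined in the same way. As deposited, 14.5% of all genes were called higher and 3.45% lower on D7, and 11.9% and 3.21% on D14. Among 9 nociceptor genes none was called on any day as deposited, and the median difference on D7 was 0.01 (-0.20 with all 16 samples and -0.10 after median-centring). After median-centring 2 of them were lower on D7, and after quantile normalization 1. Under these scalings 2057 and 2320 of all 14023 genes were lower on D7. The neuropeptide gene Calca was at 697.7 FPKM in sham and 713 FPKM on D7 (adjusted p = 0.899), and Tac1, which encodes substance P, was at 231.5 and 195 FPKM (adjusted p = 0.119, but 0.0361 after median-centring and 0.0214 after quantile normalization). Of 8 genes of large-diameter neurons 2 were lower on D7 and 3 on D14, with medians of -0.28 and -0.27. These were the heavy neurofilament gene Nefh (2330 to 1892 FPKM on D7, adjusted p = 0.00423) and the axonal potassium channel gene Kcna2 (66.2 to 52.8 FPKM, adjusted p = 0.0283), joined on D14 by the BDNF receptor gene Ntrk2 (48.9 to 37.9 FPKM, adjusted p = 0.0132). With all 16 samples 5 were lower on D7 and 1 on D14, when 4.76% and 1% of all genes were. Nefh (adjusted p = 0.128) and Kcna2 (adjusted p = 0.199) were then not called on D14. After median-centring 5 of the 8 were lower on D7. Of 9 nerve injury genes tested, the transcription factor gene Jun rose on D7 (0.28, adjusted p = 0.0245, but 0.127 after median-centring) and Cacna2d1, the gabapentinoid-binding calcium channel subunit, fell by 0.28 on the log2 scale (adjusted p = 0.0133, but a difference of -0.14 with adjusted p = 0.390 with all 16 samples), and none was called on D14.

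Markers of other cells of the ganglion also moved on the day of the Hcn4 difference, when 14.5% of all genes were called higher and 3.45% lower. On D14 these shares were 11.9% and 3.21%. All 15 macrophage markers rose on D7 and 13 on D14, and their summed FPKM was 109 to 197 in sham, 127 to 169 on D1, 1237 to 1680 on D7 and 989 to 3066 on D14, with no marker at 0 in any sample. All 10 T cell markers tested rose on both days, with summed FPKM of 1.16 to 2.04 in sham, 26.9 to 79.2 on D7 and 20.0 to 70.9 on D14; between 1 and 4 of the 11 listed, Cd5 included, were at 0 in each sham sample and none was on D7. Endothelial markers summed to 48.4 to 56.1 FPKM in sham, 50.4 to 61.6 on D1, 54.3 to 73.3 on D7 and 47.8 to 61.2 on D14, and 1 of 6, the junction gene Cdh5, rose on D7. Of 11 glial genes Glul (0.44) rose and Kcnj10 (-0.75) fell on D7, and those that fell on D14 included Kcnj10 and the Schwann cell gene Cdh19 (adjusted p = 0.0404, but 0.150 with all 16 samples). Of 5 muscle genes tested none was called on any day, although sham replicate 4 alone had a summed muscle level of 559 FPKM. The part of these cells in the Hcn4 difference was not tested.

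Proteins that bind or modify HCN channels formed a list of 13 genes, of which 12 were tested. On D7 1 rose and 1 fell, and on D14 2 rose, with list medians of -0.05 and -0.03. Over all genes 14.5% rose and 3.45% fell on D7, and 11.9% rose on D14. Lrmp (also Irag2), which encodes a membrane protein of lymphoid cells that blunts the cyclic AMP response of HCN4, rose from 0.900 to 2.81 FPKM on D7 (1.01, adjusted p = 0.00519) and to 2.35 FPKM on D14 (0.79, adjusted p = 0.0161). Kctd3, an HCN3-binding protein, fell from 17.4 to 15.8 FPKM on D7 (by 0.13 on the log2 scale, adjusted p = 0.0358). Kcne2, an accessory subunit of several channels, rose from 0.735 to 1.48 FPKM on D14 (0.52, adjusted p = 0.00614; 0.33, adjusted p = 0.0547 after quantile normalization). After median-centring 5 of the 12 were lower on D7 in place of 1, and after quantile normalization 4. Among all 14023 genes, those lower on D7 went from 484 to 2057 and 2320 under these scalings.

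Other channels carry a cyclic nucleotide-binding domain as HCN channels do. Of 14 CNG and EAG-family genes looked for, 13 were listed and 5 passed the filter, and none was called on any day as deposited. The most abundant were Kcnh2 (47.7 FPKM in sham and 43.0 on D7, adjusted p = 0.0835) and Kcnh7 (9.81 and 8.15 FPKM, adjusted p = 0.0661), both of the ERG potassium channel group. After median-centring 3 of the 5 were lower on D7, and after quantile normalization 4. Of all 14023 genes, 2057 and 2320 were lower under these scalings, against 484 as deposited.

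Enzymes that set cyclic AMP, the ligand of HCN2 and HCN4, were taken next. Of 9 adenylyl cyclases tested 2 rose on both D7 and D14, when 14.5% and 11.9% of all genes were called higher. Adcy4 went from 1.10 ± 0.157 to 2.81 ± 0.266 FPKM on D7 (0.86, adjusted p = 9.14e-05) and 1.83 FPKM on D14 (0.43, adjusted p = 0.00463). Adcy7, an isoform well known from blood cells, went from 5.11 to 7.03 FPKM on D7 (0.39, adjusted p = 0.0216) and 6.77 FPKM on D14 (0.34, adjusted p = 0.0320), but on D7 it was not called with all 16 samples (adjusted p = 0.149), after median-centring (adjusted p = 0.0550) or after quantile normalization (adjusted p = 0.0664). Its D14 call was lost in the same 3 settings (adjusted p = 0.110, 0.0543 and 0.0631). The list medians were -0.01 on D7 and 0.01 on D14. After median-centring, 1 cyclase was higher and 2 lower on D7, when 1357 and 2057 of all 14023 genes were.

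None of 15 cyclic nucleotide phosphodiesterases, which break cyclic AMP or cyclic GMP down, was called on any day as deposited, with a median of 0.11 on D7 that was 0.00 after median-centring and -0.11 after quantile normalization. Pde2a was at 17.7 FPKM in sham and 19.2 on D7 (adjusted p = 0.513), and Pde1c at 15.8 and 12.8 FPKM (adjusted p = 0.0564). Pde1c was called lower on D7 with all 16 samples (-0.41, adjusted p = 0.0286), after median-centring (-0.39, adjusted p = 0.00777) and after quantile normalization (-0.36, adjusted p = 0.0111), and on D14 under both of these scalings (adjusted p = 0.0351 and 0.0453). Lower calls on D7 then made up 4.76% of all genes with 16 samples. Under the 2 scalings they numbered 2057 and 2320 of 14023 genes on D7, against 484 as deposited, and 1390 and 1547 on D14, against 450. Of the 4 prostaglandin E2 receptors, Ptger2, which couples to cyclic AMP production, rose on D7 from 1.57 ± 0.626 to 3.19 ± 0.597 FPKM (0.73, adjusted p = 0.0109) and none was called on D14. Among all genes 14.5% were called higher on D7. Ptger2 was not called with all 16 samples (0.51, adjusted p = 0.105) or after quantile normalization (0.50, adjusted p = 0.0532).

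Channels that work against or beside Ih near the resting potential gave calls in both directions. Of 11 tested, 1 rose and 2 fell on D7, and 1 rose and 1 fell on D14, with medians of -0.06 and -0.08. Among all genes, 14.5% rose and 3.45% fell on D7, and 11.9% rose and 3.21% fell on D14. The two-pore potassium channel gene Kcnk2 (TREK-1) rose from 4.93 to 6.98 FPKM on D7 (0.43, adjusted p = 0.0198), and was not called with all 16 samples (adjusted p = 0.168) or under the other scalings (adjusted p = 0.0595 median-centred and 0.0775 quantile). The M-current gene Kcnq5 fell from 16.0 to 13.1 FPKM on D7 (by 0.27, adjusted p = 0.0267) and by 0.28 on D14 (adjusted p = 0.0186, but 0.170 with all 16 samples). Kcnq3, its partner in the M-current, fell from 2.96 to 1.79 FPKM on D7 (by 0.51, adjusted p = 0.0458). Both Kcnq genes were also called lower on D7 with all 16 samples and under both other scalings. In these settings lower calls were more common over all genes. They made up 4.76% with 16 samples, and numbered 2057 (median-centred) and 2320 (quantile) of 14023 genes, against 484 as deposited.

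**Figure D5:**
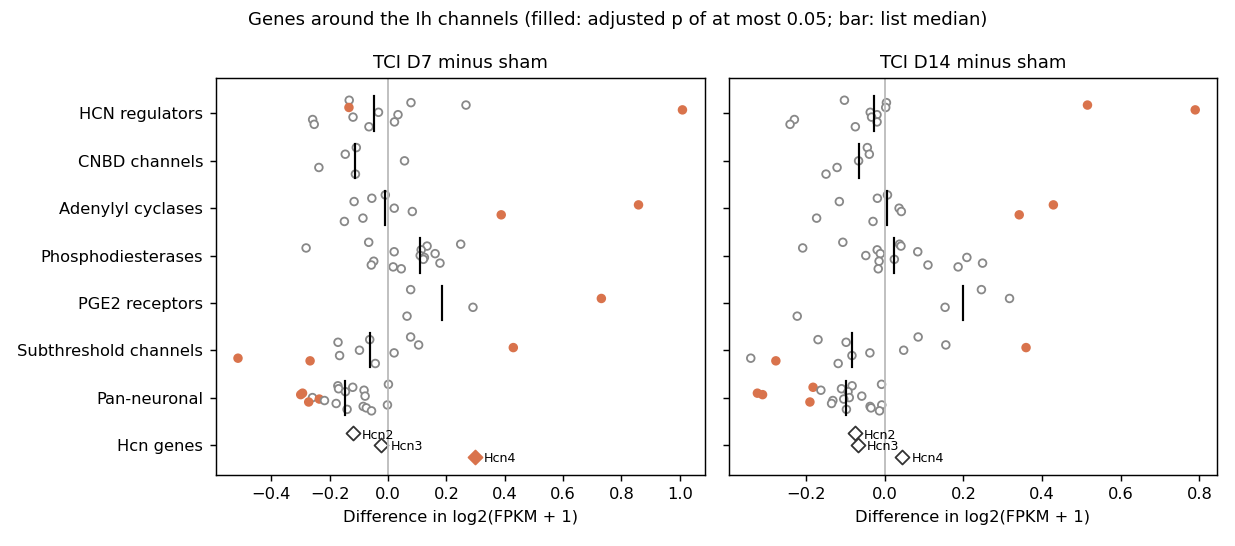
Differences from sham in log2(FPKM + 1) on TCI D7 (left) and TCI D14 (right) for tested genes of 7 lists and the 3 Hcn genes; each circle is a gene, filled where the adjusted p is at most 0.05, vertical bars are list medians and diamonds the Hcn genes. Hcn4 at 0.30 is filled on D7 only, and the pan-neuronal genes lie mostly left of 0 on both days, with medians of -0.15 and -0.10.

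The genes whose levels followed each Hcn gene most closely over the 14 samples differed between the 3 genes. Correlations are Pearson's r of log2(FPKM + 1), given as a description among 9536 or 9537 genes with a mean of at least 5 FPKM; samples share group and scaling. For Hcn2 they included Ndrg4 (r = 0.91), Sars (0.89), Ggt7 (0.88) and Drg1 (0.88). Over all 16 samples r was 0.98 for Ndrg4, 0.97 for Ggt7, 0.84 for Sars and 0.51 for Drg1. For Hcn3 they were Syt1 (0.79), the synaptic vesicle calcium sensor, then RGD1359108 (0.75), Mturn (0.75), Prep (0.74) and Hace1 (0.74). For Hcn4 they were Dhrs3 (0.91), Sdpr (0.91), the ephrin gene Efnb1 (0.90), the coagulation inhibitor gene Tfpi (0.90) and Pid1 (0.89), and over 16 samples these ranged from 0.33 to 0.74.

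Among the 3 genes, over the 14 samples, r was 0.11 between Hcn2 and Hcn3, 0.35 between Hcn3 and Hcn4 and -0.62 between Hcn2 and Hcn4. With the 2 dropped samples r became 0.81, 0.72 and 0.38. All 3 genes were at their lowest in TCI D7 replicate 3, 1 of the 2 samples added.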

How the data were processed

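DRG RNA was sequenced on a BGISEQ-500; per the study's methods, reads were cleaned, mapped with HISAT/Bowtie2 and quantified with RSEM, and the submitters' processing notes name Bowtie2 and CASAVA 1.4. The genome build is not given in the sources used here, so no coordinates are reported. The authors deposited 1 FPKM value per gene and sample, rounded to 2 decimals; read counts were not used here. The 3 Hcn genes matched RefSeq by Entrez identifier.

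Groups followed the labels. The labels name PBS as the sham injection, whereas the methods name boiled tumor cells. Genes reaching 1 FPKM in 3 or more samples entered the test on log2(FPKM + 1), which understates changes of low genes, with limma 3.58.1 (R 4.3.3, lmFit, eBayes with trend), all 4 groups in 1 fit of 14 samples, and Benjamini-Hochberg adjustment over all genes; calls needed an adjusted p of at most 0.05. The model was tested on simulated data. Shares and levels relative to the pan-neuronal list used two-sided exact permutation tests (Python 3.11.15), adjusted over 18. FPKM carries no read totals, so counting error per value is unknown.

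Members, 15 gene lists and tests were chosen with earlier results of these data known. Genes named are the Hcn genes in every sample; in each list up to 4 called members with the smallest adjusted p on D7, or, with none called, the 2 most abundant; and the 5 genes most correlated with each Hcn gene. Some genes that this rule names are not reported here. Alternatives were all 16 samples, 2 groups only, no trend, quantile normalization, other filters and pseudocount, a replicate block and each sample left out; median-centring was added after seeing the data.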

Additional observations from a re-analysis of the deposited data

Results flagged for a closer look

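In TCI D7, with its 4 samples, Hcn4 in replicate 3 lay far below the others, at 1.54 FPKM against 3.29, 3.37 and 3.46 FPKM. Its gap to the nearest sample was 0.911 of the group's range, above Dixon's critical value for 4 samples. Of the 12 combinations of gene and group examined this was the only one past that value, and chance flags about 1 in 20. Hcn2 and Hcn3 were also lowest in this replicate, with gaps of 0.759 and 0.707 of the range. The replicate is 1 of the 2 that the study dropped, and its summed muscle and pan-neuronal levels are 22534 and 10511.4 FPKM; their part in its Hcn levels was not tested.

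The difference of Hcn4 from sham was not the same on D7 as on D1: the test of D7 against D1 gave 0.39 on the log2 scale (limma, adjusted p = 0.00695). With all 16 samples this difference was 0.18 (adjusted p = 0.436).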

How the results depend on the processing

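The Hcn4 difference on D7 (0.30, adjusted p = 0.0142) was above 0 under every alternative run but lost its call with all 16 samples (0.10), after quantile normalization (0.083), after median-centring (0.19) and without TCI D7 replicate 2 (0.28); leaving out single samples gave 0.28 to 0.31. A filter on a mean of 5 FPKM leaves Hcn4 untested and called 1157 genes higher on D7 and 1001 on D14. Hcn4 on D14 turned to -0.10 after quantile normalization and -0.025 after median-centring, and ran from -0.014 (without TCI D14 replicate 4) to 0.090 with single samples left out. Uncalled differences near 0 changed sign when single samples were left out: Hcn2 on D1 (-0.044 to 0.044; TCI D1 replicate 1, sham replicates 2 and 4), Hcn3 on D7 (-0.059 to 0.034; TCI D7 replicate 1, sham replicate 4), Hcn2 relative to the pan-neuronal list on D1 (-0.0065 to 0.084), D7 (-0.014 to 0.070) and D14 (-0.0062 to 0.078; sham replicate 1 each time), and the D14 shares of Hcn2 (-0.88 to 0.225 points; TCI D14 replicate 4) and Hcn3 (-0.353 to 0.186 points; TCI D14 replicates 2 and 3, sham replicates 1, 3 and 4). With nociceptor and large neuron genes as the reference, Hcn2 on D7 was at -0.023. Between days, Hcn3 turned to -0.062 (D7 against D1) and 0.13 (D14 against D7) with all 16 samples and to -0.0031 (D14 against D1) after quantile normalization, and Hcn2 from D7 to D14 ran from -0.014 (without TCI D14 replicate 3) to 0.082 with single samples left out. The cause of these changes was not tested. Calls over all genes on D7 (2028 higher, 484 lower) became 1341 and 2320 after quantile normalization and 2057 lower after median-centring, and 1411 to 2390 higher and 296 to 720 lower without single samples (lowest without TCI D7 replicate 4, with 307, 300 and 313 without TCI D7 replicate 1 or sham replicate 1 or 2); on D14 (1670 higher, 450 lower) they became 1101 and 1547 after quantile normalization, 934 and 194 with only the 2 groups, 141 lower with all 16 samples and 1390 lower after median-centring, and 1135 to 2014 higher and 226 to 601 lower without single samples (253 without TCI D14 replicate 2, and 239, 226 and 265 without sham replicates 1, 2 and 3). Over all alternatives, the counts past the study's thresholds ran from 49 (without TCI D7 replicate 1) to 471 (without TCI D14 replicate 2) on D7, against 257, and from 4 (only the 2 groups) to 180 (pseudocount 0.1) on D14, against 90; those called higher on D7 against D1 ran from 584 (mean of at least 5 FPKM) to 1621 (without TCI D14 replicate 2), against 1265. Replicate numbers did not pair the samples: deviations of same-numbered samples correlated with a median of 0.00 (-0.0952 to 0.269) over 18 pairs and 6 of 14 samples correlated best with their own number. The replicate block gave 1905 higher and 520 lower on D7, left Hcn4 at 0.28 (adjusted p = 0.0396) and changed no Hcn call. FPKM to 2 decimals without read totals limits what can be said of the precision of Hcn4, the lowest of the 3.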
